A study of Homo sapiens with 9 samples.

Results

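EBF1, POU2F2, POU2AF1, SPIB, SPI1, IKZF1, IKZF3, TCF3, ETS1 and FOXO1 are transcription factors that set up or maintain the identity of B cells. They were chosen by name, as 10 of the 59050 gene symbols in the count table, and their RNA was followed in MEC1, an established cell line of chronic lymphocytic leukemia (CLL), a cancer of mature B cells. The 9 samples formed 3 groups of 3: MEC1 cells in conventional culture (2D), and MEC1 cells that were mixed with a hydrogel, bioprinted into scaffolds and harvested at day 7 (3D_7d) or at day 14 (3D_14d). The labels name no other treatment and give no culture time for 2D. Every sample title begins with MECPGK, and the paper does not say what PGK stands for. All groups came from 1 cell line, and the labels do not say that the replicates were separate cultures, so p-values measured only the spread between these samples.

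B cells are specified from progenitors by EBF1 and by the E protein encoded by TCF3, which open and activate genes of the B lineage. POU2F2 (OCT2) binds the octamer motif of immunoglobulin promoters together with its coactivator POU2AF1 (OBF1), while SPI1 (PU.1) and SPIB are closely related ETS factors that bind the same purine-rich sites. IKZF1 (Ikaros) and IKZF3 (Aiolos) are zinc finger factors that recruit chromatin remodelling complexes and are the targets of lenalidomide through cereblon, ETS1 restrains the differentiation of B cells into plasma cells, and FOXO1 is held out of the nucleus by PI3K-AKT signalling.

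On GRCh38 the members lie on several chromosomes, in no common cluster: EBF1 at chr5:158695916-159099916, POU2F2 at chr19:42086110-42132478, SPIB at chr19:50418938-50431314, TCF3 at chr19:1609290-1652615, POU2AF1 at chr11:111352255-111379275, SPI1 at chr11:47354860-47378576, ETS1 at chr11:128458761-128587558, IKZF1 at chr7:50304678-50405101, IKZF3 at chr17:39757718-39864312 and FOXO1 at chr13:40555667-40666641. SPIB and IKZF1 lie on the plus strand and the others on the minus strand. SPIB shared 22.1% of its exonic bases with AC020909.2, which had 0 counts, IKZF1 shared 1.35% with AC124014.1, and the other members shared none.

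RefSeq promoters (GRCh38.p14) were found for 6 of the 10 members. The windows of SPIB, IKZF1 and POU2F2 are shown because these genes had higher RNA in scaffolds in the tests given further on. The ETS core GGAA is marked because it lies within the purine-rich sites that SPIB and SPI1 bind. Each window holds the 250 bases before an annotated start, 5′ to 3′ on the strand of the gene, with every GGAA, or TTCC on the opposite strand, in capitals.
SPIB, chr19:50418688-50418937, plus strand: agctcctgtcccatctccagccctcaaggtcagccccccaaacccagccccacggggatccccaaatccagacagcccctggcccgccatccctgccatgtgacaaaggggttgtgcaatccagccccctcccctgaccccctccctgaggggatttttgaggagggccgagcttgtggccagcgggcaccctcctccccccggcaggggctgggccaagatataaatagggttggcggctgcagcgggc
IKZF1, the first of its annotated starts, chr7:50304466-50304715, plus strand: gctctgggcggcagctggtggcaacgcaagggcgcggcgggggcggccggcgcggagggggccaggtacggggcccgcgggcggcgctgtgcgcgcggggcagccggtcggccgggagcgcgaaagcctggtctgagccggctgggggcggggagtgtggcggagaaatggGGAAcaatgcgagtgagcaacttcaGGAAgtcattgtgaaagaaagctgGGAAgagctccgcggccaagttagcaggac
POU2F2, chr19:42132447-42132696, minus strand: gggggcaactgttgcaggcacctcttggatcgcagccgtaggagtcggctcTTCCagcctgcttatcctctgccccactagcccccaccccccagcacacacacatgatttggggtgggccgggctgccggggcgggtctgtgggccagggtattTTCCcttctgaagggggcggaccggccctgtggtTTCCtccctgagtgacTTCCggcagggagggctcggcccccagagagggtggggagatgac

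The ETS core occurred 4 times in the POU2F2 window, 3 times in the IKZF1 window shown, and 0 times in that of SPIB, while 92.7% of the 35116 promoter windows of this length held at least 1 copy. The longer PU box core GAGGAA occurred 1 time in the POU2F2 window and 0 times in the SPIB and IKZF1 windows shown. It occurred 2 times in the window of a later IKZF1 start, against 23.6% of all windows with a copy. The octamer ATGCAAAT, searched on both strands, was in none of the member windows and in 1.6% of all windows. The EBF core CCCNNGGG occurred 1 time each in the windows of SPIB and IKZF1, against 17.1% of all windows with a copy. A match is a description of letters in these windows, and the count data bear on no binding to them.

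Each library held 54662799 to 85968686 counts. All 10 members passed the filter on low counts, a library-scaled read count (CPM) above 1 in at least 3 samples, as did 13463 genes in all. The 3D_14d replicate 1 stood apart: the mean chi-square per gene between it and the other 3D_14d samples was 253 and 305, against 155 between those 2 samples. Pairs of samples had 28.4 to 54.1 in 2D and 22.5 to 81.9 at day 7, so all day 14 pairs were above them. The main fit shares 1 estimate of the spread among the 3 groups. The members' day 14 results are also given without 3D_14d replicate 1, as are those of other genes where their call changed or a called value moved by over 1.5 times. RNA was extracted with TRIzol, DNase and a column from scaffolds and with the column kit alone from 2D cultures, so extraction and culture cannot be told apart in a comparison with 2D. The immunoglobulin share of counts rose from 1.25 to 1.31% in 2D to 4.47 to 5.24% at day 7 and 5 to 7.14% at day 14, and the share of ribosomal protein genes was 3.76 to 4.42%, 1.53 to 1.67% and 1.73 to 2.99%. Among marker lists, 8 of 8 B cell markers were retained, with a summed CPM of 3265 to 3314 in 2D, 3446 to 4158 at day 7 and 4163 to 4535 at day 14. The 6 plasma cell markers summed to 1602 to 1618, 3274 to 3543 and 3389 to 4387, and 4 of 6 NK cell markers were retained, with sums of 15 to 18.2, 92.8 to 130 and 217 to 420. JCHAIN made up much of the plasma cell sums in scaffolds, with mean CPM of 507, 1902 and 2649 in the 3 groups. IRF4 had 386, 808 and 393, whereas SDC1 fell from 37.8 to 17.1 and 20.9. GNLY made up most of the NK cell sums in scaffolds (13.4, 113 and 289). KLRD1 rose from 0.553 to 2.31 and 4.71, KLRF1 had 1.41, 0.91 and 2.82, and NKG7 fell from 1.66 to 0.424 and 1.08. For T cells 3 of 8 markers were retained (53.7 to 67, 38 to 46.8 and 58.4 to 95.8, CD3D at 0 in 2D and at day 14), for myeloid cells 1 of 7 (1.9 to 2.39, 1.26 to 2.65 and 4.05 to 5.21, LYZ at 0 in 2D and at day 14) and for stromal cells 2 of 5 (10.1 to 11.4, 2.26 to 5.23 and 2.68 to 8.84). The part of these shares and markers in the changes of the members was not tested. All samples were of the MEC1 line, and the lists name no other cells added to it. In bulk samples like these, a change in the number of MEC1 cells expressing a gene and in RNA per cell cannot be told apart.

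In 2D cells every member was expressed, and on the scale of CPM per kilobase of exon (RPKM) their levels differed widely. The order of mean RPKM in 2D was POU2AF1 with 48.1 ± 1.36 (SD, n = 3), TCF3 with 26.5, ETS1 with 18.3, SPI1 with 16.7, EBF1 with 13.5, POU2F2 with 8.79, IKZF3 with 8.16, SPIB with 7.06, IKZF1 with 4.7 and FOXO1 with 2.33. In this order only the neighbours ETS1 and SPI1, and IKZF3 and SPIB, overlapped between samples. POU2AF1 kept the highest level and FOXO1 the lowest in all groups, without overlap with their neighbours. SPIB moved from the eighth position in 2D to the third at day 7 with 20.5 RPKM, where it overlapped with ETS1 and TCF3. SPI1 was second at day 14 with 30.9 RPKM, and there it overlapped with TCF3, whose samples ranged from 18.5 to 38.1 RPKM.

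**Figure D1:**
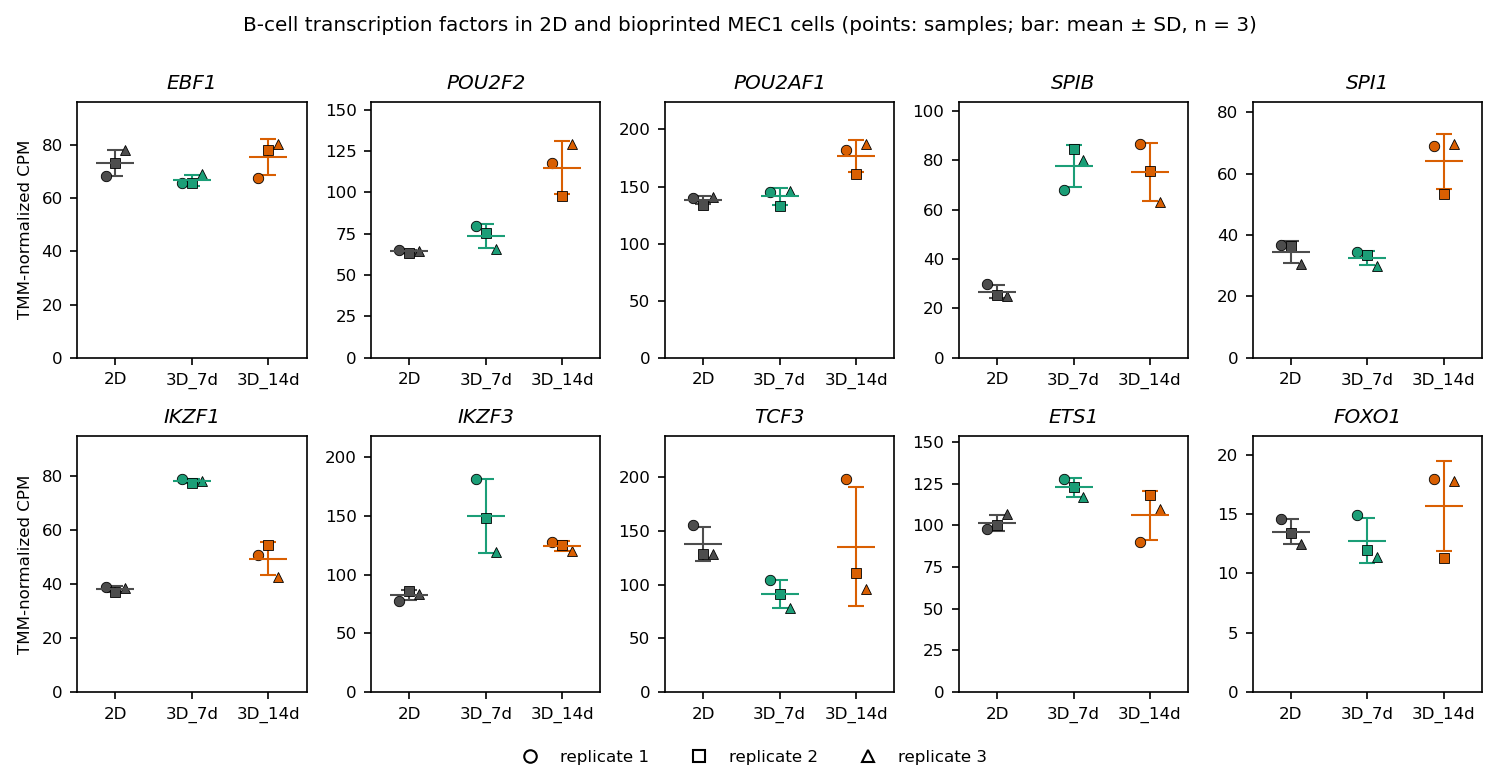
Level of each of the 10 factors in TMM-normalized CPM (vertical axis, starting at 0) in the 3 groups, with 1 symbol per sample and the mean ± SD of 3 replicates as lines. SPIB is higher in all 6 scaffold samples than in 2D, IKZF1 is highest at day 7, SPI1 and POU2F2 are highest at day 14, and the TCF3 value of 199 CPM in 3D_14d replicate 1 lies above the other samples of its group.

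Against 2D, 3 of the 10 members were called higher at day 7 (SPIB, IKZF1 and IKZF3), at an adjusted p of at most 0.05 in edgeR's quasi-likelihood test over all retained genes, and 0 were called lower. Of all genes tested, 43.4% were called at day 7, 22.2% higher and 21.2% lower. At day 14, 5 of 10 members were higher (POU2F2, POU2AF1, SPIB, SPI1 and IKZF3) and 0 lower, against a background of 36.2%, with 19.0% of genes higher and 17.2% lower. No member was lower at day 14 at an unadjusted p under 0.05, or by DESeq2, whereas at day 7 TCF3 was lower by both. Between the time points 3 members were called (POU2F2 and SPI1 higher at day 14, IKZF1 lower), against 28.1% of genes, 14.5% higher and 13.6% lower.

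The median log2 fold change of the members was 0.11 at day 7, beside -0.0039 for all retained genes, 0.36 at day 14, beside 0.023, and 0.24 for day 14 against day 7, beside -0.0012. Samples of the groups did not overlap for 6 members at day 7 (64.6% of all genes), 6 at day 14 (49.7%) and 4 between the time points (39.3%). Both comparisons with 2D use the same 2D samples. Scaling by total counts alone, without the TMM factors, gave a median of all genes of -0.16 at day 7 and -0.18 at day 14, and the changes below are relative to the TMM scale. Without 3D_14d replicate 1 the members called were 5 at day 7, 7 at day 14 and 3 between the time points, beside 53.5%, 39.6% and 28.3% of all genes.

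**Figure D2:**
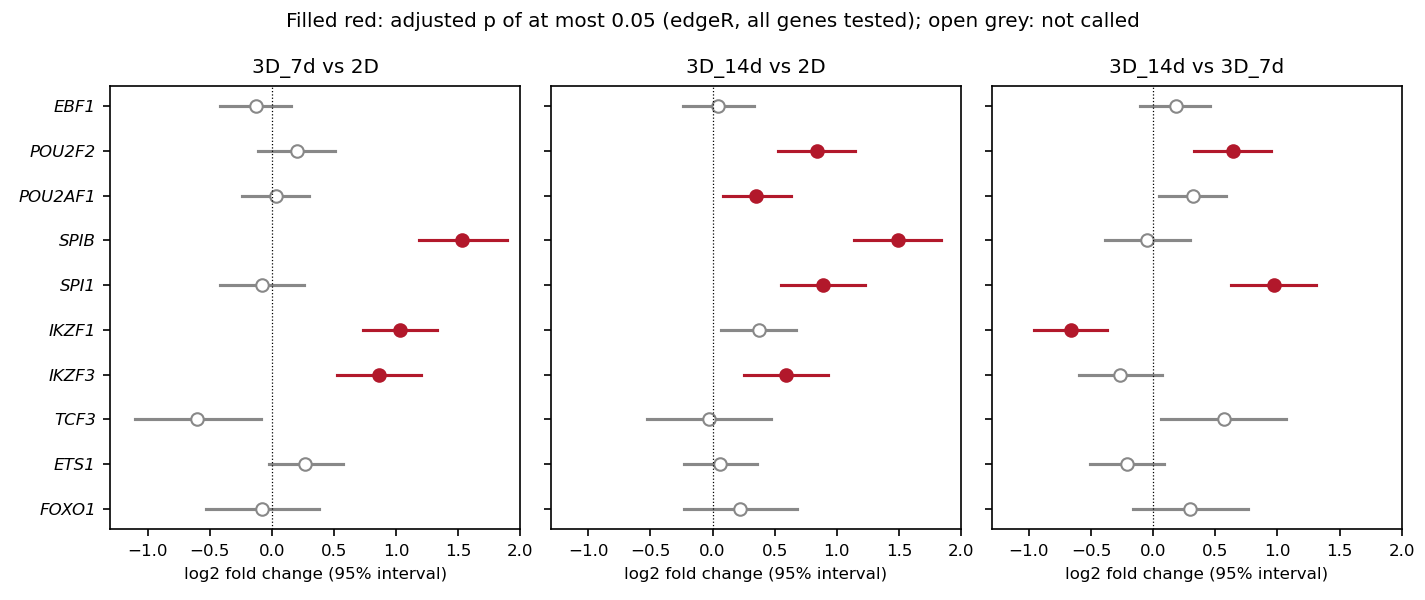
Log2 fold change of the 10 factors (horizontal axis) with its 95% confidence interval in the 3 comparisons, where filled red points passed the adjusted p of 0.05 and open grey points did not. SPIB has the highest value in both comparisons with 2D (1.53 and 1.49), and IKZF1 is the called member that lies below 0, in day 14 against day 7 (-0.66).

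Among the factors that specify the lineage, EBF1 did not pass the test in any comparison. Its CPM was 68.1, 73 and 78 in 2D, 65.4, 65.5 and 68.9 at day 7, and 67.5, 78 and 80.1 at day 14, and all 3 groups overlapped. The log2 fold change of EBF1 was -0.13 at day 7 (95% interval -0.42 to 0.15, adjusted p = 0.439) and 0.042 at day 14 (-0.24 to 0.33, adjusted p = 0.828), intervals that leave out a doubling or a halving. Leaving out 3D_14d replicate 1 gave 0.12 at day 14 (adjusted p = 0.444).

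TCF3 had 156, 129 and 129 CPM in 2D, 104, 91.8 and 78.3 at day 7, and 199, 111 and 96.4 at day 14. All day 7 samples were below all 2D samples, whereas at day 14 replicate 1 was above and the others below. The log2 fold change at day 7 was -0.60 (SE 0.234, adjusted p = 0.0552), short of the threshold, and at day 14 it was -0.03 (SE 0.233, adjusted p = 0.932). The day 7 value of TCF3 passed in 10 of the 20 alternative settings tried, with total counts alone (-0.75, adjusted p = 0.0154) and with a replicate block (-0.60, adjusted p = 0.0147) among them, and with that block the difference of the time points also passed (0.51, adjusted p = 0.0447). The day 14 value turned on 1 library: without 3D_14d replicate 1, TCF3 was called lower at day 14 (-0.41, SE 0.147, adjusted p = 0.0401) and at day 7 (-0.61, SE 0.13, adjusted p = 0.00184). The ID proteins, which bind E proteins such as that of TCF3 and keep them from DNA, were listed with it. ID2 fell from 223 ± 4.43 CPM in 2D to 119 ± 10.2 at day 7 (SD, n = 3, log2 fold change -0.90, adjusted p = 0.000258) and was 169 ± 19.6 at day 14 (-0.40, adjusted p = 0.0364). ID3 fell at day 7 (-1.04, adjusted p = 0.00733) and did not pass at day 14 (-0.38, adjusted p = 0.272, or -0.60 and 0.0911 without 3D_14d replicate 1), ID1 did not pass at either time (-0.60 and -1.19, adjusted p = 0.303 and 0.0584), and ID4 had at most 2 counts. Of the 3 ID genes retained, 2 were thus called lower at day 7 and 1 at day 14, beside 21.2% and 17.2% of all genes. Their medians were -0.90 and -0.40, beside -0.0039 and 0.023 for all genes. The day 14 call of ID2 was lost in 10 of the 20 alternative settings.

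POU2F2, the octamer factor, had 65.3, 63.3 and 64.4 CPM in 2D, 79.6, 75.7 and 65.7 at day 7, and 118, 97.8 and 129 at day 14. Every day 14 sample was above every earlier sample. POU2F2 rose at day 14 against 2D by 0.84 on the log2 scale (SE 0.144, adjusted p = 0.000826), a 1.79-fold higher level, and against day 7 by 0.64 (SE 0.144, adjusted p = 0.00653), whereas the day 7 value of 0.20 did not pass (adjusted p = 0.287). Without 3D_14d replicate 1 the day 14 value was 0.82 (adjusted p = 0.00065).

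POU2AF1, its coactivator, had 140, 134 and 141 CPM in 2D, 145, 133 and 146 at day 7, and 182, 161 and 187 at day 14, and the day 14 samples were all above the others. Its log2 fold change was 0.35 at day 14 (SE 0.126, adjusted p = 0.0431), close to the threshold, and 0.032 at day 7 (adjusted p = 0.857). The day 14 call of POU2AF1 was lost in 14 of the 20 alternative settings tried, and with total counts alone its value was 0.15 (adjusted p = 0.373). It was 0.34 without 3D_14d replicate 1 (adjusted p = 0.035). The share of immunoglobulin counts, whose promoters carry octamers, also rose in the scaffolds (values above), and whether it bears on POU2F2 and POU2AF1 was not tested.

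SPIB showed the largest rise among the members in both comparisons with 2D. Its CPM was 29.8, 25.4 and 25.1 in 2D, 68.1, 84.5 and 80.1 at day 7, and 86.4, 75.8 and 63 at day 14, so that the lowest scaffold sample had over 2 times the CPM of the highest 2D sample. SPIB rose by 1.53 on the log2 scale at day 7 (SE 0.162, adjusted p = 2.51e-05) and by 1.49 at day 14 (SE 0.162, adjusted p = 4.28e-05), and 1.38 without 3D_14d replicate 1 (adjusted p = 2.48e-05). The time points did not pass a test of their difference (-0.047, 95% interval -0.39 to 0.30, adjusted p = 0.845).

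SPI1, the ETS factor shared by B cells and myeloid cells, followed another course. It had 36.9, 36.3 and 30.5 CPM in 2D, 34.5, 33.4 and 30.1 at day 7, and 68.9, 53.5 and 69.6 at day 14. The 2D and day 7 samples overlapped (log2 fold change -0.082, adjusted p = 0.7), and all day 14 samples were above both. SPI1 rose at day 14 by 0.89 against 2D (SE 0.157, adjusted p = 0.000995) and by 0.97 against day 7 (SE 0.157, adjusted p = 0.00115). These values were 0.84 (adjusted p = 0.00102) and 0.93 (adjusted p = 0.00104) without 3D_14d replicate 1. Of the 7 myeloid markers, ITGAM, an integrin chain, moved with SPI1: its mean CPM of 1.4 in 2D was 0.776 at day 7 and reached 4.21 at day 14 (1.58 against 2D, adjusted p = 0.0527, and 2.44 against day 7, adjusted p = 0.0119). The other 6 (CSF1R, CD14, LYZ, MPO, CSF3R and CEBPA) were under 1 CPM in every sample, and the part of myeloid genes in the SPI1 values was not tested.

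Within a sample, a ratio of RPKM between partners does not depend on the scaling of libraries. The ratio of SPIB to SPI1 was 0.441, 0.382 and 0.448 in 2D, 1.08, 1.38 and 1.45 at day 7, and 0.684, 0.773 and 0.494 at day 14. SPIB RPKM was thus below that of SPI1 in 2D and at day 14 and above it at day 7, and no 2 groups overlapped. Which gene is higher rests on the exon lengths used, 3792 bases for SPIB and 2069 for SPI1. Before division by length, SPIB CPM was above SPI1 CPM in 3D_14d replicates 1 and 2 (86.4 against 68.9, 75.8 against 53.5). In replicate 3 it was below (63 against 69.6). The change of the ratio between groups does not depend on these lengths. The mean log2 difference of the ratio was 1.61 at day 7 and 0.60 at day 14 against 2D, and -1.02 between the time points. Each had a two-sided exact permutation p = 0.1, the smallest that 3 against 3 samples can give, and adjusted p = 0.18 over the 9 ratios tested. The ratio of POU2AF1 to POU2F2 was 5.46, 5.38 and 5.57 in 2D, 4.63, 4.48 and 5.64 at day 7, and 3.91, 4.19 and 3.7 at day 14. The day 14 samples were below all others (-0.48 against 2D, exact permutation p = 0.1, adjusted p = 0.18).

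**Figure D3:**
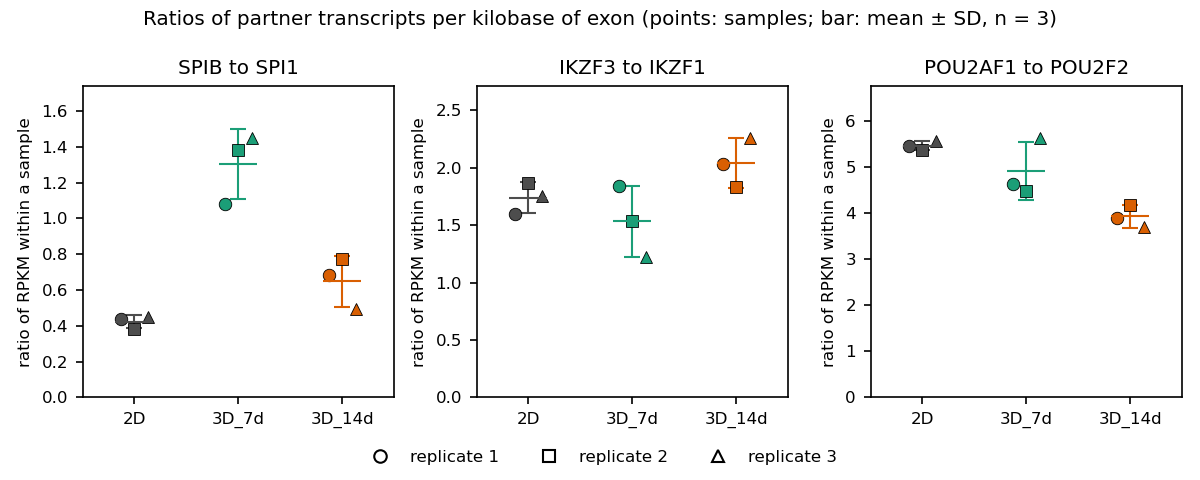
Ratio of the RPKM of 2 partner genes within each sample (vertical axis, starting at 0) for SPIB to SPI1, IKZF3 to IKZF1 and POU2AF1 to POU2F2, with 1 symbol per sample and the mean ± SD of 3 replicates as lines. The SPIB to SPI1 ratio is 0.424 on average in 2D, 1.3 at day 7 and 0.65 at day 14, whereas the groups of the IKZF3 to IKZF1 ratio overlap.

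IKZF1 peaked at day 7. Its CPM was 39.1, 37.1 and 38.6 in 2D, 79.2, 77.4 and 78.3 at day 7, and 50.9, 54.6 and 42.8 at day 14, with no overlap between groups. IKZF1 rose by 1.03 at day 7 on the log2 scale (SE 0.138, adjusted p = 0.000117) and fell by 0.66 from day 7 to day 14 (SE 0.138, adjusted p = 0.00449). The day 14 value against 2D was 0.37 (SE 0.137, adjusted p = 0.0521), which missed the threshold, and without 3D_14d replicate 1 it was 0.35 and passed (adjusted p = 0.0478).

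IKZF3 had 77.7, 86.2 and 83.9 CPM in 2D, 182, 148 and 119 at day 7, and 128, 125 and 120 at day 14. All scaffold samples were above all 2D samples, and the time points overlapped. IKZF3 rose by 0.86 at day 7 (SE 0.156, adjusted p = 0.000882) and by 0.59 at day 14 (SE 0.156, adjusted p = 0.0106), and the day 14 call was lost with total counts alone (0.38, adjusted p = 0.0787), with no filter on low counts (0.54, adjusted p = 0.0598) and without 2D replicate 1 (0.53, adjusted p = 0.0508). The day 14 value was 0.57 without 3D_14d replicate 1 (adjusted p = 0.0109). The difference of the time points did not pass (-0.27, adjusted p = 0.212). The ratio of IKZF3 to IKZF1 was 1.6, 1.87 and 1.75 in 2D, 1.84, 1.54 and 1.22 at day 7, and 2.03, 1.83 and 2.26 at day 14. Its groups overlapped in each comparison (exact permutation p between 0.2 and 0.4).

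Around the Ikaros factors, 12 of 12 listed partners of their nuclear complexes were retained, and 7 were called higher and 0 lower at day 7. Their median on the log2 scale was 0.41, and 0.21 at day 14, beside -0.0039 and 0.023 for all genes. For the counts of this list and those below, 22.2% of all genes were higher and 21.2% lower at day 7, and 19.0% and 17.2% at day 14. Without 3D_14d replicate 1, 53.5% and 39.6% of all genes were called. With total counts alone 5736 and 4851 of the 13463 genes were called, and the medians of all genes were below 0. Shares by direction are not given for these 2 settings, so list counts in them have no background by direction. MTA2, a subunit of the NuRD remodelling complex, rose from 25.6 ± 1.65 to 50 ± 10.4 CPM (0.97, adjusted p = 0.00542), and RBBP7, a histone chaperone, had 0.50 (adjusted p = 0.00928). At day 14, 2 were higher, HDAC1, a histone deacetylase (0.35, adjusted p = 0.0486), and CHD4, the NuRD helicase (1.36, adjusted p = 0.00441), and 0 were lower. The HDAC1 call at day 14 was lost in 17 of the 20 alternative settings, and without 3D_14d replicate 1 CHD4 had 0.84 (adjusted p = 0.00657), and MTA2, at 0.31 with all samples (adjusted p = 0.325), had 0.53 (adjusted p = 0.041). With total counts alone the day 7 count was 2 higher and 1 lower, and without 3D_14d replicate 1 it was 9 and 1. The day 14 count was 1 and 1 with total counts alone and 3 and 0 without that library. In the main edgeR fit 0 partners were lower in either comparison with 2D, and the lowest values were those of MTA1 (-0.61, adjusted p = 0.0566 at day 7) and HDAC2 (-0.17, adjusted p = 0.329 at day 14). Of the cereblon ligase, which takes up both Ikaros factors when lenalidomide is bound, CRBN itself did not pass (-0.14 and -0.047, adjusted p = 0.392 and 0.801). Its adaptor DDB1 rose at day 7 (1.34, adjusted p = 0.000628) with 0.52 at day 14 (adjusted p = 0.0909), and CUL4A rose at day 7 (0.67, adjusted p = 0.00791) with 0.14 at day 14 (adjusted p = 0.561). RBX1 had 0.15 at day 7 (adjusted p = 0.611) and rose at day 14 (0.85, adjusted p = 0.0112), and CUL4B did not pass (-0.22 and -0.26, adjusted p = 0.381 and 0.322). Without 3D_14d replicate 1 the day 14 values were 0.78 for DDB1, which then passed (adjusted p = 0.000867), 0.53 for RBX1 (adjusted p = 0.0225) and 0.30 for CUL4A (adjusted p = 0.0954), and the RBX1 call was lost without 2D replicate 2 or 3. The medians of the 5 ligase genes, 0.15 and 0.14, turned to -0.0025 and -0.058 with total counts alone, where those of all genes were -0.16 and -0.18.

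ETS1 had 97.8, 99.9 and 107 CPM in 2D, 128, 123 and 117 at day 7, and 89.8, 118 and 110 at day 14. The day 7 samples were all above 2D, and the day 14 samples lay on both sides. Neither value passed (0.27, adjusted p = 0.126 and 0.064, adjusted p = 0.746), but without 3D_14d replicate 1 the day 7 value of 0.26 did (adjusted p = 0.0426) and the day 14 value was 0.17 (adjusted p = 0.233), and in a fit of the 6 samples alone it was 0.25 (adjusted p = 0.0251).

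FOXO1, the member with the lowest level, had 14.6, 13.4 and 12.5 CPM in 2D, 14.9, 12 and 11.4 at day 7, and 18, 11.3 and 17.8 at day 14, and its groups overlapped. Its log2 fold change was -0.079 at day 7 (95% interval -0.53 to 0.38, adjusted p = 0.787) and 0.22 at day 14 (-0.23 to 0.68, adjusted p = 0.436), or 0.12 without 3D_14d replicate 1 (adjusted p = 0.694). Genes known as FOXO targets moved in both directions around this level. Of 13 retained, 3 rose and 6 fell at day 7 (median -0.55), and 3 rose and 3 fell at day 14 (median -0.23). CCNG2, a cyclin of resting cells, fell (-1.82 and -0.55, adjusted p = 3.64e-05 and 0.0449), as did the cell cycle inhibitor CDKN1B (-1.60 and -0.87, adjusted p = 0.000424 and 0.0174) and the receptor gene IL7R (-1.59 and -1.84, adjusted p = 0.000511 and 0.0003). Of the 10 retained PI3K-AKT genes, 3 were higher and 1 lower at both times, with medians of 0.21 and 0.11. The lipid phosphatase INPP5D rose (1.09 and 0.60, adjusted p = 0.000428 and 0.0181), as did the kinase PDPK1 (0.58 and 0.59, adjusted p = 0.0154 and 0.0164), and AKT1 rose at day 14 (0.70, adjusted p = 0.00624) with 0.42 at day 7 (adjusted p = 0.0575). Without 3D_14d replicate 1, CCNG2 at day 14 was -0.36 and not called (adjusted p = 0.0838), and AKT1 at day 7 was 0.41 and called (adjusted p = 0.0268). In the same setting the FOXO targets numbered 3 higher and 8 lower at day 7 and 2 and 2 at day 14, and the PI3K-AKT genes 5 and 2 at day 7 and 4 and 1 at day 14. With total counts alone the PI3K-AKT genes numbered 1 higher and 2 lower at day 7 and 1 and 1 at day 14, where their median was -0.079, beside -0.18 for all genes.

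Genes that these factors are known to control at the B cell surface and in receptor signalling were split. Of 14 retained, 3 rose and 3 fell at day 7 (median -0.014), and 6 rose and 1 fell at day 14 (median 0.22). At day 7 the gene of CD20, MS4A1, rose from 841 ± 48.9 to 1524 ± 146 CPM (0.86, adjusted p = 0.00069) and had 0.35 at day 14 (adjusted p = 0.0859), and the kinase gene BTK rose at both times (0.71 and 0.42, adjusted p = 0.000903 and 0.022). The signalling chains of the B cell receptor rose at day 14. In 2D CD79A had 509 ± 55 CPM, with 630 ± 72.6 at day 7 and 1312 ± 268 at day 14 (1.37, adjusted p = 0.000101, and 1.06 against day 7, adjusted p = 0.00106), and CD79B had 163 ± 19, 143 ± 29.7 and 356 ± 104 CPM (1.13, adjusted p = 0.00135, and 1.32 against day 7, adjusted p = 0.00107). CD22, an inhibitory coreceptor, fell at both times (-1.12 and -0.71, adjusted p = 0.000736 and 0.014), and VPREB3 fell at day 7 from 6.6 ± 1.47 to 0.815 ± 0.472 CPM (-3.01, adjusted p = 0.000241) with -0.75 at day 14 (adjusted p = 0.171). Without 3D_14d replicate 1 the day 14 value of MS4A1 passed (0.46, adjusted p = 0.0117) and the day 14 count was 7 higher and 1 lower, and with total counts alone 5 and 3.

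Other transcription factors of the B lineage were mostly not called: of 13 retained, 2 rose and 2 fell at day 7, and 1 rose and 1 fell at day 14 (medians 0.17 and 0.19). PRDM1 (BLIMP1), the regulator of plasma cell differentiation, rose from 20 ± 2.69 CPM to 49.9 ± 7.22 at day 7 (1.32, adjusted p = 0.000508) and was 30.3 ± 9.2 at day 14 (0.60, adjusted p = 0.047), where its samples overlapped with 2D and the call was lost in 13 of the 20 alternative settings. IRF4 rose at day 7 from 386 ± 35.6 to 808 ± 149 CPM (1.07, adjusted p = 0.000717) and had 0.029 at day 14 (adjusted p = 0.917). The NF-kB subunit gene REL fell (-1.26 and -0.76, adjusted p = 0.000857 and 0.0187), and MEF2B fell at day 7 (-1.31, adjusted p = 0.0404) with -0.63 at day 14 (adjusted p = 0.31), or -0.33 without 3D_14d replicate 1 (adjusted p = 0.586). Without 3D_14d replicate 1 the day 14 count was 4 higher and 1 lower. PRDM1, IRF4 and XBP1 of this list are also among the 6 plasma cell markers whose sums are given above, and of which SDC1 fell in the scaffolds. The part of plasma cell genes in these values was not tested.

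Relatives from the members' own families moved by family member. Of 20 relatives 14 were retained, of which 2 rose and 5 fell at day 7, and 1 rose and 1 fell at day 14 (medians -0.30 and -0.33). IKZF2 (Helios), of the Ikaros family, fell from 82 ± 5.97 CPM to 40.5 ± 6.05 at day 7 (-1.02, adjusted p = 0.0011), with 54.1 ± 14.1 CPM at day 14 (-0.60, adjusted p = 0.0262), opposite in sign to IKZF1 and IKZF3. POU2F3 fell at day 7 (-1.44, adjusted p = 0.00781) with -0.96 at day 14 (adjusted p = 0.0577). ETV6, an ETS repressor, and FOXO4 rose at day 7 (0.61 and 1.06, adjusted p = 0.00958 and 0.0452) and had 0.37 and 0.98 at day 14 (adjusted p = 0.1 and 0.0694). The E protein gene TCF4 had 0.078 at day 7 (adjusted p = 0.708) and rose at day 14 (0.42, adjusted p = 0.0444), a call lost in 14 of the 20 alternative settings. The FOXO4 call at day 7 was lost in 12 of them, and its 2D and day 7 samples overlapped. The day 14 values of ETV6 (0.49, adjusted p = 0.0166) and FOXO4 (1.15, adjusted p = 0.0392) passed without 3D_14d replicate 1. With total counts alone 0 relatives were higher and 6 lower at each time, where the medians of all genes were -0.16 and -0.18. Without 3D_14d replicate 1 the day 14 count was 3 higher and 2 lower.

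**Figure D4:**
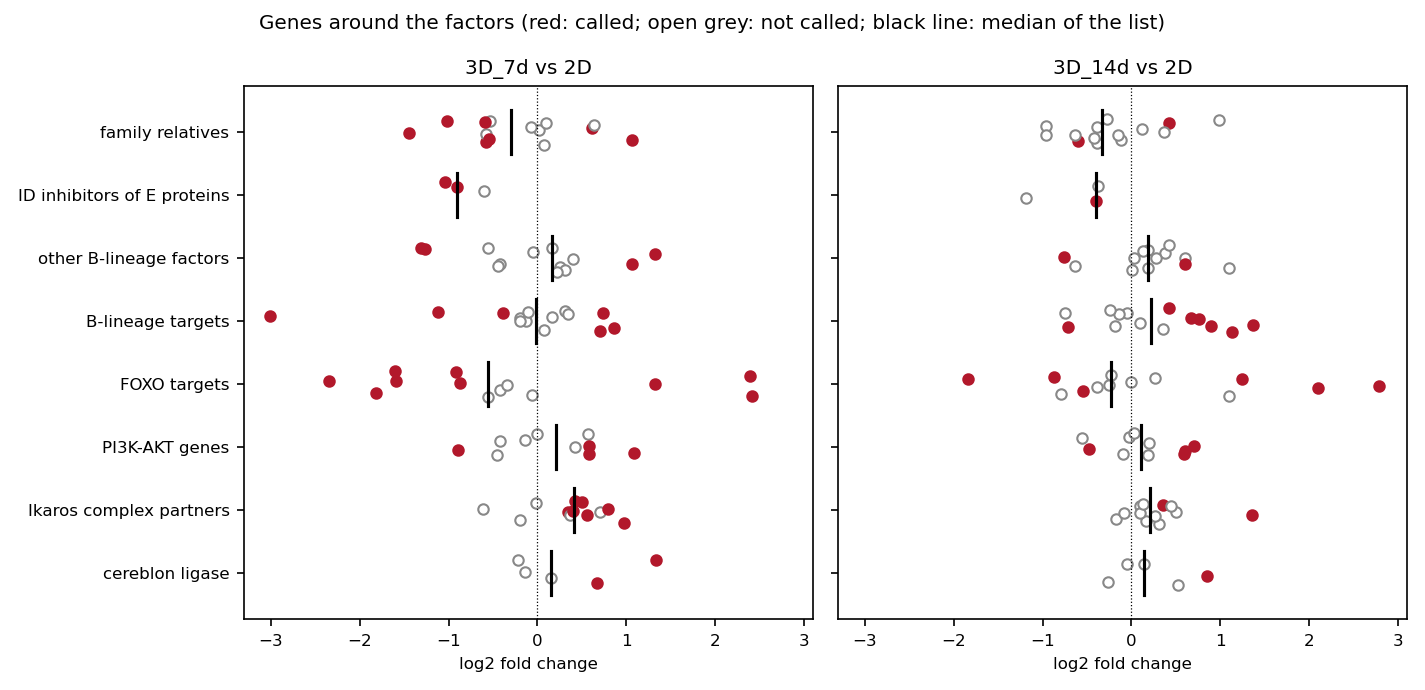
Log2 fold change against 2D (horizontal axis) of the retained genes of each list at day 7 and day 14, in red where the adjusted p was at most 0.05, with the list's median as a black line. At day 7 the 12 Ikaros partners have a median of 0.41, and 6 of the 13 FOXO targets are called below 0, beside 21.2% of all genes.

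Likeness between genes was measured as the root mean square difference of their log2 CPM over the 9 samples, each gene centred on its 2D mean. The 3 genes nearest to SPIB were RHBDD2 (0.0839), CNPPD1 (0.111) and LTA, which encodes lymphotoxin alpha (0.134). Among the members themselves, POU2F2 and SPI1 were nearest to each other (0.178), with SPI1 at rank 41 of the 13462 other genes for POU2F2 and POU2F2 at rank 23 for SPI1. IKZF1 and IKZF3 were likewise each other's nearest members (0.24, ranks 405 and 251). SPIB had no member close to it, with IKZF3 the nearest at 0.694 and rank 1244. These values describe the same 9 samples in which the changes were tested.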

How the data were processed

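RNA of MEC1 cells was sequenced in 9 samples. Per the labels, libraries were made with SMART-Seq v4 from a low RNA input and read as single reads. The authors trimmed reads with Trimmomatic (version 0.39), aligned them to GRCh38 with STAR (version 2.5.3a) and assigned them to genes with featureCounts (version 1.6.4), and the deposited values are raw read counts per gene, without normalization. The strand setting and the treatment of reads with several alignments are not given in the sources used here, so reads of overlapping or near-identical genes cannot be told apart.

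The filter kept genes whose CPM exceeded 1 in 3 or more samples. In R (version 4.3.3), edgeR (version 4.0.16) was used with TMM factors, 1 model of the 3 groups and the quasi-likelihood test in 3 comparisons, with Benjamini-Hochberg adjustment over all retained genes and a threshold of 0.05. The SE is the absolute log2 fold change divided by the square root of F. RPKM used TMM-scaled libraries and the deposited exon lengths. Ratios were tested with two-sided exact permutation tests. The pipeline was tested on simulated data.

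The members and the gene lists were chosen with earlier results of these data known. Named with values were all members, the genes of lists of 5 or fewer, up to 2 called genes per direction with the smallest p in each list and comparison with 2D, and the 3 genes nearest to the member with the largest rise. MTA1, HDAC2, XBP1, JCHAIN, SDC1, GNLY, KLRD1, KLRF1, NKG7 and the myeloid markers were named after their values were seen. Some genes that this rule names are not reported here. Alternatives were other scalings, DESeq2 (version 1.42.0), other filters, the 6 samples of a comparison alone, a replicate block, removal of a gene length trend, a minimum fold change and leaving out each sample. With at least 54662799 counts per sample, the spread between replicates limited the precision of the members.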

Additional observations from a re-analysis of the deposited data

Results flagged for a closer look

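In 3 members the change against 2D differed between the time points by a test of the difference itself, which is the comparison of day 14 with day 7 (edgeR). The same 2D samples serve both times and cancel out. Without 2D samples of each day, time in culture and an effect of the scaffold cannot be told apart here. The difference in log2 fold change was 0.97 for SPI1 (adjusted p = 0.00115), -0.66 for IKZF1 (adjusted p = 0.00449) and 0.64 for POU2F2 (adjusted p = 0.00653), each with no overlap between the 3 samples of either time.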

How the results depend on the processing

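Across 20 alternative settings, 1767 of 2040 values of named genes kept their direction and side of the threshold, 171 lost the call, 68 gained it and 34 changed sign. The members called at day 7 became 5 with only the 6 samples of the comparison, where all genes called numbered 7800 (57.9%), and 3 to 5 when each sample was left out. At day 14 they became 3 with total counts alone, 3 with no filter and 1 with a minimum absolute log2 fold change of 1, and 3 to 7 when each sample was left out. All genes called there were 4875 in the main fit, 4851 with total counts alone and 4679 with no filter. The fit with no filter tested the 51726 genes with at least 1 count, against 13463 in the main fit, so its count is a much smaller share. Between the time points the members called became 5 with DESeq2's Wald test, 6 with the gene length trend removed, 5 with that and the block, 0 with the minimum fold change, and 3 to 4 when each sample was left out. All genes called there were 3785 in the main fit, 4505 with DESeq2, 3954 with the length trend removed and 3809 with that and the block. All genes called fell to 2755, 2172 and 1456 with the minimum fold change, ranged from 4427 to 7204, 3311 to 5330 and 2282 to 4357 when each sample was left out (2282 without 3D_7d replicate 2, 2413 without 3D_7d replicate 3), and numbered 2453 between the time points with only 6 samples. The minimum fold change can only lower a count, and the cause of the other changes was not tested.

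Sign changes concerned values that were not called. With total counts alone they were POU2AF1 -0.13, TCF4 -0.078 and RBX1 -0.0025 at day 7, and EBF1 -0.16, ETS1 -0.13, IRF4 -0.16, RBBP7 -0.11 and CUL4A -0.058 at day 14. With the length trend removed they were POU2AF1 -0.043 and CD79B 0.0028 at day 7, TCF3 0.053 at day 14 and SPIB 0.089 between the times, and with the block as well POU2AF1 -0.044 and SPIB 0.069. Without immunoglobulin, ribosomal protein and mitochondrial genes in the TMM factors POU2AF1 was -0.009, and with no filter EBF1 was -0.014 and IRF4 -0.029. When each sample was left out, the values spanned 0 for POU2AF1 (-0.035 to 0.038, with -0.024 without 2D replicate 2 and -0.0078 without 3D_7d replicate 1) and TCF4 (-0.028 to 0.079) at day 7, for EBF1 (-0.022 to 0.12, with -0.0062 without 3D_14d replicate 3), TCF3 (-0.41 to 0.16), ETS1 (-0.021 to 0.17), IRF4 (-0.12 to 0.19), RBBP7 (-0.014 to 0.16) and CUL4A (-0.025 to 0.30) at day 14, and for SPIB between the times (-0.15 to 0.065).

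The labels do not say whether replicate numbers pair the samples, and the correlations differed between the comparisons. Deviations of same-numbered samples correlated at -0.1 to -0.0177 (day 7 and 2D), 0.0931 to 0.185 (day 14 and 2D, where every sample correlated best with its own number) and -0.0952 to -0.00522 (both time points). With the replicate block the members called were 4 in each comparison, TCF3 being added at day 7 and between the time points and POU2AF1 lost at day 14, and all genes called 5760, 4819 and 3683.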
